A study of Homo sapiens with 12 samples.

Results

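The genes described here lie side by side on human chromosome 4. They are the 3 genes whose proteins bind the receptor CXCR3, CXCL9, CXCL10 and CXCL11, together with ART3, SDAD1, NUP54 and NAAA around them. They were chosen by position near the CXCR3 ligand genes and make up 7 of the 40173 gene IDs in the deposited table, and 6 of them were abundant enough to enter the test across genes. RNA had been sequenced from 624Mel, an established human melanoma line. The cells carried a control siRNA (siCTRL) or a single siRNA against MITF (siMITF), introduced by transient transfection, and either received no IFNγ (interferon gamma) or 5 ng/mL IFNγ for 24 h from 24 h after transfection. All cells were collected 48 h after transfection, and each of the 4 conditions, siCTRL, siCTRL + IFNγ, siMITF and siMITF + IFNγ, has 3 libraries.

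CXCL9, CXCL10 and CXCL11 are small secreted chemokines that interferons induce in many cell types. They attract activated T cells and natural killer cells, which carry CXCR3. IFNγ binds the receptor subunits IFNGR1 and IFNGR2, whose kinases JAK1 and JAK2 activate STAT proteins, and these, with IRF1 and other interferon regulatory factors, bind interferon-responsive sites in promoters. ART3 belongs to the family of ecto-ADP-ribosyltransferases and is anchored at the cell surface. SDAD1 has been linked to ribosome assembly, NUP54 is a component of the nuclear pore channel and NAAA is a lysosomal enzyme that breaks down lipid amides. MITF is the transcription factor that keeps the pigment cell programme active.

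In GENCODE v44 (GRCh38) the order along the chromosome is NAAA at chr4:75913660-75941013, SDAD1 at chr4:75940950-75990962, CXCL9 at chr4:76001275-76007509, ART3 at chr4:76011184-76114048, CXCL10 at chr4:76021118-76023497, CXCL11 at chr4:76033682-76041415 and NUP54 at chr4:76107562-76148485. All are protein-coding, ART3 is on the forward strand and the other genes are on the reverse strand. The whole spans of CXCL10 (2380 bases) and CXCL11 (7734 bases) lie within that of ART3 and share 0 exon bases with it. ART3 and NUP54 overlap tail to tail over 6487 bases, and 1814 of these are exonic in both genes, which is 40.1% of the annotated exon bases of ART3 and 11.7% of those of NUP54. The shared bases occur in 11 of 17 ART3 transcripts and in 2 of 29 NUP54 transcripts, 1 of them coding. The canonical transcripts share 0 bases, and 270 of the 1557 bases of canonical ART3 lie in an exon of some NUP54 transcript. The library kit does not mark strand, so reads from those bases cannot be assigned to one gene by strand. SDAD1 and NAAA overlap by 64 exon bases on the same strand.

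The promoters of the 4 genes that respond to IFNγ are shown because these genes all rose with IFNγ and their upstream sequences differ in the letters they contain. Each run is the 250 bases before a RefSeq start (GRCh38.p14), written 5′ to 3′ on the gene's own strand, and capitals mark matches to a motif searched on both strands. The motifs were the interferon-stimulated response element core (GAAA, any 2 bases, GAAA), a STAT site (TTC, any 3 bases, GAA), an NF-kB site (GGGA, any 4 bases, CC) and the E-box that MITF is known to bind (CACGTG or CATGTG).
CXCL9, chr4:76007510-76007759, reverse strand: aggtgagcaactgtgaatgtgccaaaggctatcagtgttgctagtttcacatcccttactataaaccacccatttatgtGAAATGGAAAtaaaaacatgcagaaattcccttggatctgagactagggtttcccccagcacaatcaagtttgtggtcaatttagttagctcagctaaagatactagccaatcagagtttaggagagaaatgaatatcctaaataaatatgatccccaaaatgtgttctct
CXCL10, chr4:76023498-76023747, reverse strand: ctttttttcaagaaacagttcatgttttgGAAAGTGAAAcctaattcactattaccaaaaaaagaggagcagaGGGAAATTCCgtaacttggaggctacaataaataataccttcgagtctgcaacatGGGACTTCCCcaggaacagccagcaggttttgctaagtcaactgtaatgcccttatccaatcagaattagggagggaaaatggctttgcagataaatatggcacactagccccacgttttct
CXCL11, chr4:76036071-76036320, reverse strand: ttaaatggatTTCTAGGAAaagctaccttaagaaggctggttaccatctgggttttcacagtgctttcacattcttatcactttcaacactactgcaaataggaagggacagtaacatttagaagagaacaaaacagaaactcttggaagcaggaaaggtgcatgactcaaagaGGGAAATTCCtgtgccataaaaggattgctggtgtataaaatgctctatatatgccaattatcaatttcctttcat
ART3 start 1, chr4:76010940-76011189, forward strand: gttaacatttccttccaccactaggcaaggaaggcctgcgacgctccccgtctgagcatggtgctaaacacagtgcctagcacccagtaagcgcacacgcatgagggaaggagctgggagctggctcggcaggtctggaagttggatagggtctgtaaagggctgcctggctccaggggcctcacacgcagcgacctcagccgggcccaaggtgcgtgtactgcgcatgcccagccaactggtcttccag
ART3 start 2, chr4:76053866-76054115, forward strand: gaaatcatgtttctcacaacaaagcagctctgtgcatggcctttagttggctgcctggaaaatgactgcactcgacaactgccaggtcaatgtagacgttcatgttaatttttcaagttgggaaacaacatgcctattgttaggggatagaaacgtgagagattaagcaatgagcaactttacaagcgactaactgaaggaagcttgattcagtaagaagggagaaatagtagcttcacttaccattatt

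CXCL9 and CXCL10 each hold an interferon-stimulated response element core, GAAATGGAAA at bases -171 to -162 from the start of CXCL9 and GAAAGTGAAA at bases -221 to -212 from that of CXCL10. This motif occurs in 3.02% of the 35116 RefSeq promoters of the same length. CXCL11 holds a STAT site, TTCTAGGAA, at bases -240 to -232, a motif found in 6.57% of promoters. NF-kB sites occur in 22.6% of promoters, and are present in CXCL10 at bases -177 to -168 and -122 to -113 and in CXCL11 at bases -76 to -67. The site nearest the CXCL11 start, GGGAAATTCC, has the same letters as the farther of the CXCL10 sites. The CXCL11 window belongs to the RefSeq start, which lies inside the longer span that GENCODE gives. Neither ART3 window holds any of these motifs, and no E-box was found before CXCL9, CXCL10, CXCL11 or ART3. E-boxes are present in 15.2% of promoters, among them those of SDAD1 and NUP54. Of the 7 genes, 6 have a RefSeq promoter in the table used. These matches describe letters only and say nothing about binding in 624Mel cells.

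The siRNA lowered its target. MITF was at 187, 229 and 217 TPM (a level scaled to the library total and corrected for transcript length) in the siCTRL libraries and at 158, 246 and 243 TPM in the siCTRL + IFNγ libraries. It was at 36.0, 49.7 and 41.7 TPM with siMITF and at 37.5, 55.1 and 51.3 TPM with siMITF + IFNγ, so all 6 siMITF libraries lay below all 6 siCTRL libraries. All 6 melanocyte markers were lower with siMITF, with and without IFNγ, at an adjusted p under 0.05 (limma). MITF, MLANA, PMEL and DCT fell by more than 1 on the log2 scale. TYR fell by less, at -0.71 without and -0.46 with IFNγ, as did SOX10, at -0.22 and -0.35. The leukocyte genes PTPRC, CD14, CSF1R and ITGAM stayed below 1 TPM in every library and CD3E was listed at 0 in all 12. CD68, a lysosomal protein that macrophages contain in large amounts, was the only one of the 6 leukocyte genes abundant enough to test. Its mean was 71.5 TPM with siCTRL and 27.3 TPM with siMITF, the opposite direction to ART3. The summed leukocyte list ran from 57.0 to 95.4 TPM with siCTRL + IFNγ and from 23.4 to 38.3 TPM with siMITF + IFNγ. Nearly all of this sum is CD68, at means of 75.5 and 30.5 TPM in these conditions. The part of this list in the results was not tested. None of the 9 endothelium, fibroblast and epithelium markers reached the minimum for testing. In RNA from a whole culture, fewer cells of a type and less RNA per cell cannot be told apart.

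The first question was which genes of the locus respond to IFNγ. CXCL9, CXCL10, CXCL11 and ART3 rose with IFNγ with either siRNA, whereas SDAD1, NUP54 and NAAA, which flank them, did not pass the test in either direction. A gene was called changed with a Benjamini-Hochberg adjusted p under 0.05 over 12773 gene IDs (limma on log2(TPM + 1)), a log2 difference of at least 1 in size and 2 TPM or more as the average of a compared condition. In siCTRL cells 4 of the 6 tested genes were called higher, against 2.42% of all tested genes, and in siMITF cells again 4 of 6, against 2.72%. CXCL10 had the largest difference of the locus in both. CXCL9, CXCL10 and CXCL11 passed the 2 TPM minimum for testing only through the conditions with IFNγ, and NAAA did not pass it. The counts of called genes of the locus, here and below, are therefore a description and not a test of the locus.

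**Figure D1:**
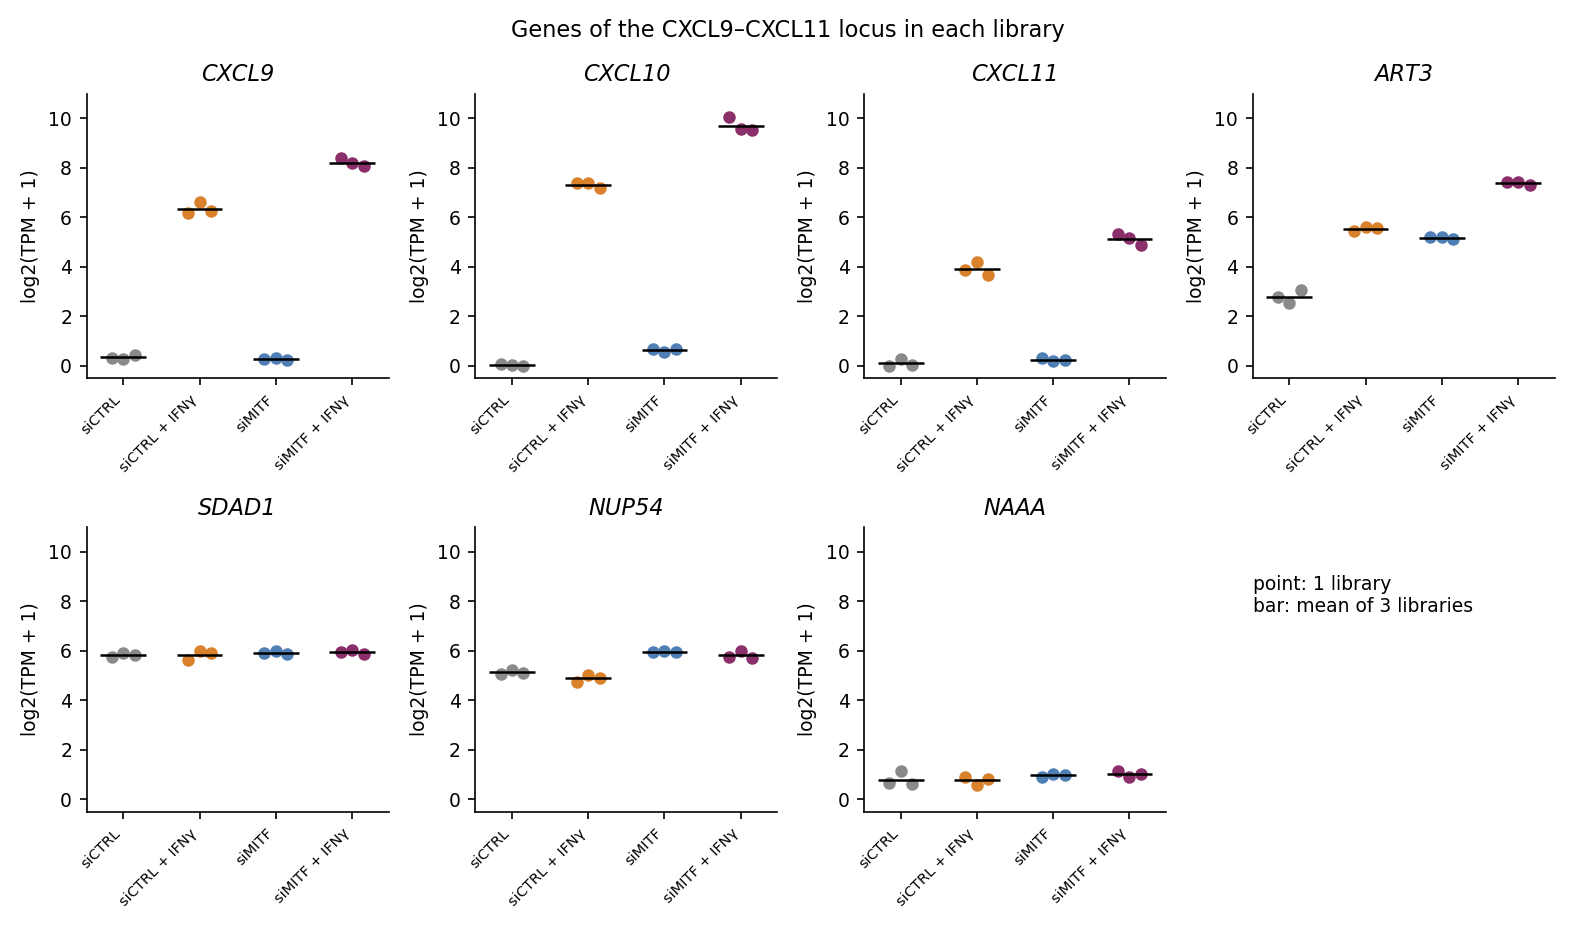
Level of each gene as log2(TPM + 1) on the vertical axis in the 4 conditions on the horizontal axis, with 1 point per library and a bar at the mean of 3 libraries. CXCL9, CXCL10 and CXCL11 stay below 1 TPM without IFNγ, ART3 starts at 4.79 to 7.29 TPM, and SDAD1 remains between 49.0 and 65.1 TPM in all 12 libraries.

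CXCL10 was listed at 0.0414, 0.0294 and 0 TPM in the siCTRL libraries and at 165, 167 and 144 TPM with siCTRL + IFNγ. With siMITF it was at 0.580, 0.481 and 0.612 TPM, and with siMITF + IFNγ at 1047, 748 and 729 TPM. Every IFNγ library lay far above every library without IFNγ, and replicate 1 of siMITF + IFNγ stood above the other two. In that condition CXCL10 ranked between 128 and 168 among the 40173 gene IDs of a library, and between 19987 and 31350 in siCTRL. The log2 difference with IFNγ was 7.28 ± 0.12 (SE) in siCTRL and 9.06 ± 0.12 in siMITF cells, with limma adjusted p of 4.96e-13 and 5.91e-14.

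CXCL9 was at 0.235, 0.219 and 0.343 TPM with siCTRL and at 70.7, 97.4 and 75.3 TPM with siCTRL + IFNγ. The siMITF libraries had 0.210, 0.258 and 0.164 TPM and the siMITF + IFNγ libraries 332, 288 and 268 TPM. The levels without IFNγ overlapped between the siRNAs, and those with IFNγ did not. The IFNγ difference was 6.01 ± 0.12 (SE) in siCTRL cells and 7.93 ± 0.12 in siMITF cells on the log2(TPM + 1) scale, with adjusted p of 1.94e-12 and 1.15e-13 from limma.

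CXCL11 reached the lowest level of the chemokines. It was listed at 0, 0.198 and 0.0227 TPM with siCTRL and at 13.6, 17.3 and 11.6 TPM with siCTRL + IFNγ. With siMITF it had 0.231, 0.151 and 0.168 TPM, and with siMITF + IFNγ 38.5, 35.1 and 28.4 TPM. The IFNγ libraries again lay wholly above the others, and replicate 2 gave the top value of siCTRL + IFNγ, as it did for each of the 6 tested genes of the locus. The log2 difference was 3.81 ± 0.15 (SE) in siCTRL cells and 4.88 ± 0.15 in siMITF cells, with limma adjusted p of 9.56e-10 and 6.12e-11.

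ART3 differed from the chemokines in being expressed before any treatment. Its libraries had 5.90, 4.79 and 7.29 TPM with siCTRL and 42.2, 47.6 and 46.0 TPM with siCTRL + IFNγ. They had 35.8, 35.9 and 33.5 TPM with siMITF, and 169, 169 and 156 TPM with siMITF + IFNγ. With either treatment alone ART3 lay between 33.5 and 47.6 TPM, higher with IFNγ than with siMITF in every library, and the combination exceeded both. IFNγ raised it by 2.74 ± 0.11 (SE) on the log2 scale in siCTRL cells and by 2.19 ± 0.11 in siMITF cells, with limma adjusted p of 1.65e-09 and 1.26e-08. The overlap with NUP54 exons touches this gene, and no count of reads in the shared bases was used here.

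The flanking genes gave a different picture. SDAD1 had 53.1, 59.9 and 55.8 TPM with siCTRL, 49.0, 62.6 and 58.5 TPM with siCTRL + IFNγ, 58.8, 62.5 and 57.4 TPM with siMITF, and 60.6, 65.1 and 58.0 TPM with siMITF + IFNγ. These ranges overlapped in every comparison, and the IFNγ difference had a 95% interval of -0.20 to 0.21 in siCTRL and of -0.16 to 0.24 in siMITF cells, so a change of the size seen in ART3 lies outside them. NUP54 had 32.7, 36.4 and 33.1 TPM with siCTRL and 26.0, 31.4 and 28.9 TPM with siCTRL + IFNγ. This IFNγ difference of -0.24 (limma adjusted p = 0.133) did not pass the test, although the 3 libraries with IFNγ lay below the 3 without. With the replicate number as a block its adjusted p was 0.0190 (range over all alternatives 0.0187 to 0.382), and the size stayed under the limit of 1. In siMITF cells NUP54 had 60.5, 63.2 and 60.8 TPM without and 52.7, 63.4 and 51.3 TPM with IFNγ, which overlapped.

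NAAA was too low to enter the fit, between 0.484 and 1.23 TPM over the 12 libraries. Its means were 0.756 ± 0.366 (SD, n = 3) TPM with siCTRL, 0.702 ± 0.192 TPM with siCTRL + IFNγ, 0.959 ± 0.0745 TPM with siMITF and 1.03 ± 0.182 TPM with siMITF + IFNγ. The libraries with and without IFNγ overlapped for either siRNA, and the mean log2 difference was 0.01 (exact two-sided permutation test within siRNA, p = 0.96, smallest possible p 0.005). At levels this low, small changes of NAAA were not detectable.

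**Figure D2:**
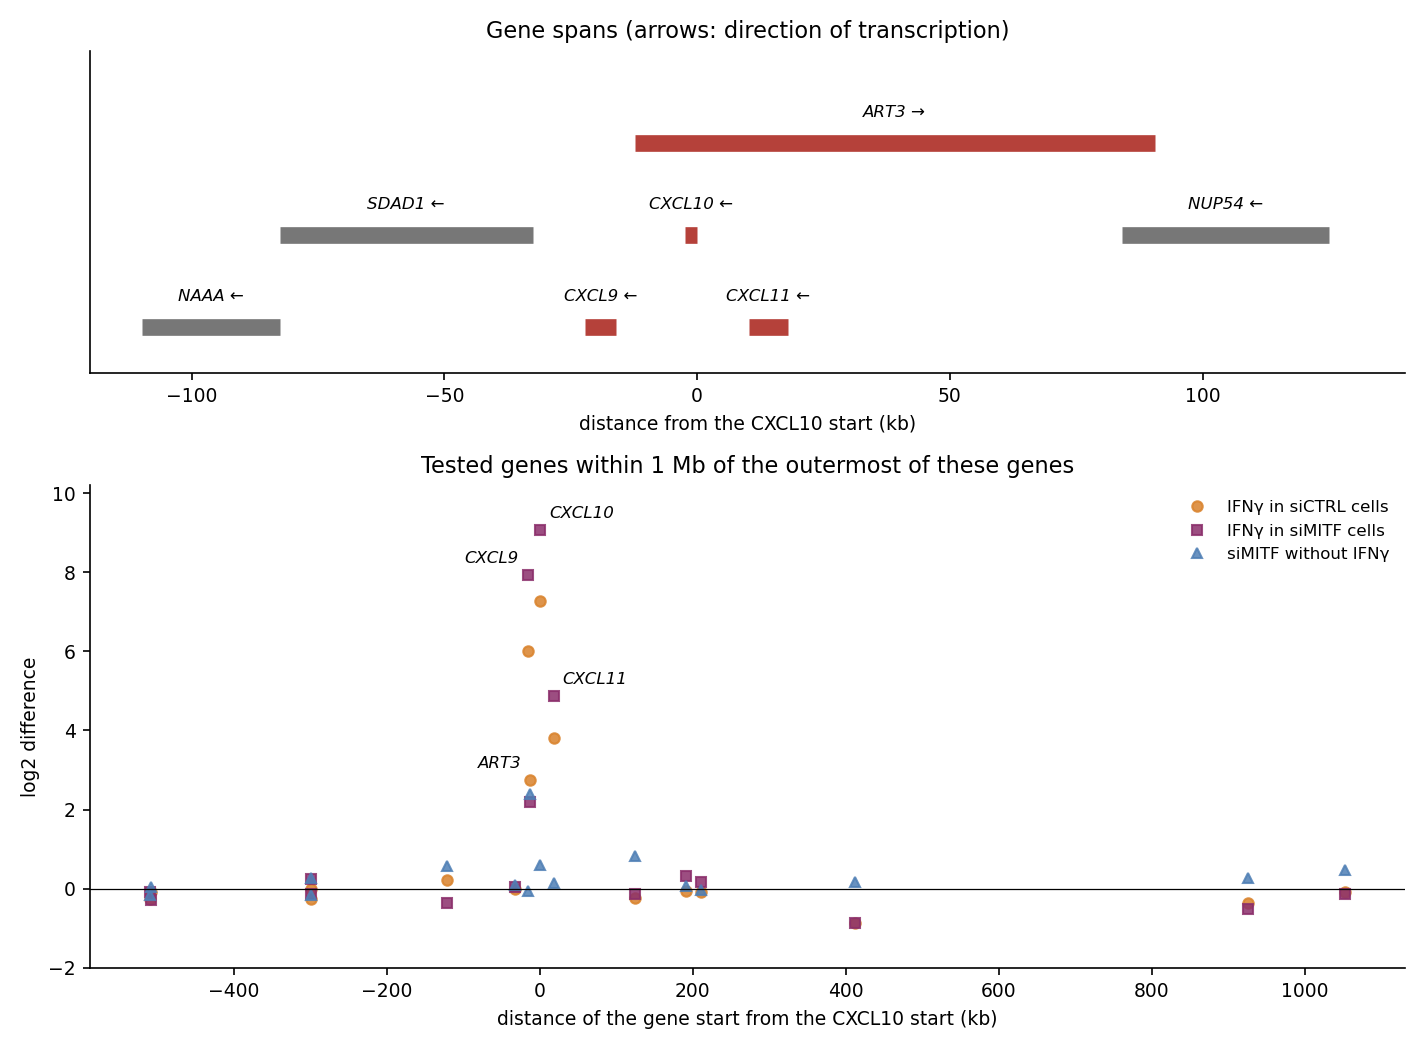
Upper panel, gene spans by distance in kb from the CXCL10 start, with arrows for the direction of transcription and the 4 genes that responded to IFNγ in red. Lower panel, log2 difference against the distance of each gene's GENCODE start from the CXCL10 start. The 6 tested genes of the locus and 10 tested neighbours are drawn, and only CXCL9, CXCL10, CXCL11 and ART3 exceed 1 with IFNγ.

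Taking the 5′ end of each GENCODE span as the start, the 4 responding genes start within 33.9 kb of each other. From the CXCL10 start, CXCL9 is at -16.0 kb, ART3 at -12.3 kb and CXCL11 at 17.9 kb. The SDAD1 start is at -32.5 kb and the NUP54 start at 125 kb. The second ART3 start, with its window ending at chr4:76054115, lies outside that stretch. The CXCL11 RefSeq start, with its window from chr4:76036071, lies closer to CXCL10 than its GENCODE start. GENCODE lists 55 other genes within 1 Mb of the outermost of the 7 genes. Of these, 29 are in the table and 10 were abundant enough to test, and limma called 0 of the 10 in any comparison. Of all 12773 tested genes, 61 to 779 were called in either direction, depending on the comparison, and 0.391% to 3.22% were called higher. With shares this low, 0 calls among 10 genes say little. SHROOM3 was lower with IFNγ by -0.88 in siCTRL and -0.86 in siMITF cells (adjusted p = 0.00448 and 0.00367), and CCNI was higher with siMITF by 0.47 without and 0.42 with IFNγ (adjusted p = 2.19e-04 and 5.29e-04), all under the limit of 1. At an unadjusted p under 0.05, 2 of the 10 differed with IFNγ in siCTRL and 4 in siMITF cells, and with siMITF 1 differed without and 3 with IFNγ. The shares of all tested genes at that p were 26.3%, 33.8%, 43.7% and 42.6%. The median IFNγ difference of the 10 was -0.08 in siCTRL and -0.13 in siMITF cells, beside -0.07 and -0.10 over all tested genes.

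The second question was what MITF knockdown does to the locus without IFNγ. ART3 was the only one of the 6 tested genes called, higher by 2.38 ± 0.11 (SE) on the log2 scale (limma adjusted p = 9.26e-09), a 5.86-fold difference in mean TPM. Of all tested genes 3.22% were called higher. NUP54 was higher by 0.84 ± 0.10 (adjusted p = 2.31e-05), 1.81-fold in mean TPM, with no overlap between libraries, but under the limit of 1. The exon overlap described above joins these 2 genes and its part in either difference was not tested. SDAD1 differed by 0.08, with a 95% interval of -0.12 to 0.28.

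Among the chemokines, CXCL10 was higher with siMITF alone in every library, by 0.60 ± 0.12 (SE) on the log2(TPM + 1) scale (limma adjusted p = 0.00234), but stayed under 1 TPM and was not called. The size of this difference depends on the pseudocount, being 1.01 with a pseudocount of 0.5 and 2.42 with a pseudocount of 0.1. CXCL9 differed by -0.06 and CXCL11 by 0.15, and their libraries overlapped between the siRNAs.

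The third question was how high the genes rose when both treatments were combined. Against siCTRL + IFNγ, the siMITF + IFNγ libraries were higher for CXCL10 by 2.38 ± 0.12 (SE), for CXCL9 by 1.86 ± 0.12, for ART3 by 1.84 ± 0.11 and for CXCL11 by 1.21 ± 0.15, with limma adjusted p from 2.98e-08 to 4.36e-05. These were 4 of 6 tested genes, against 3.12% of all tested genes. In mean TPM the increases were 5.31-fold for CXCL10, 3.65-fold for CXCL9, 3.63-fold for ART3 and 2.40-fold for CXCL11, and no library of one condition overlapped the other. NUP54 was higher by 0.93 ± 0.10 (adjusted p = 1.01e-05), under the limit of 1, and SDAD1 by 0.12 (adjusted p = 0.382). NAAA, which was not fitted, was 1.47-fold higher in mean TPM, and its libraries did not overlap, with 0.864 to 1.23 against 0.484 to 0.846 TPM. Without IFNγ its libraries overlapped between the siRNAs. NAAA was not tested between the siRNAs, and the share of all genes whose libraries do not overlap was not computed. With siMITF under IFNγ, 42.6% of all tested genes had an unadjusted p under 0.05 (limma).

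**Figure D3:**
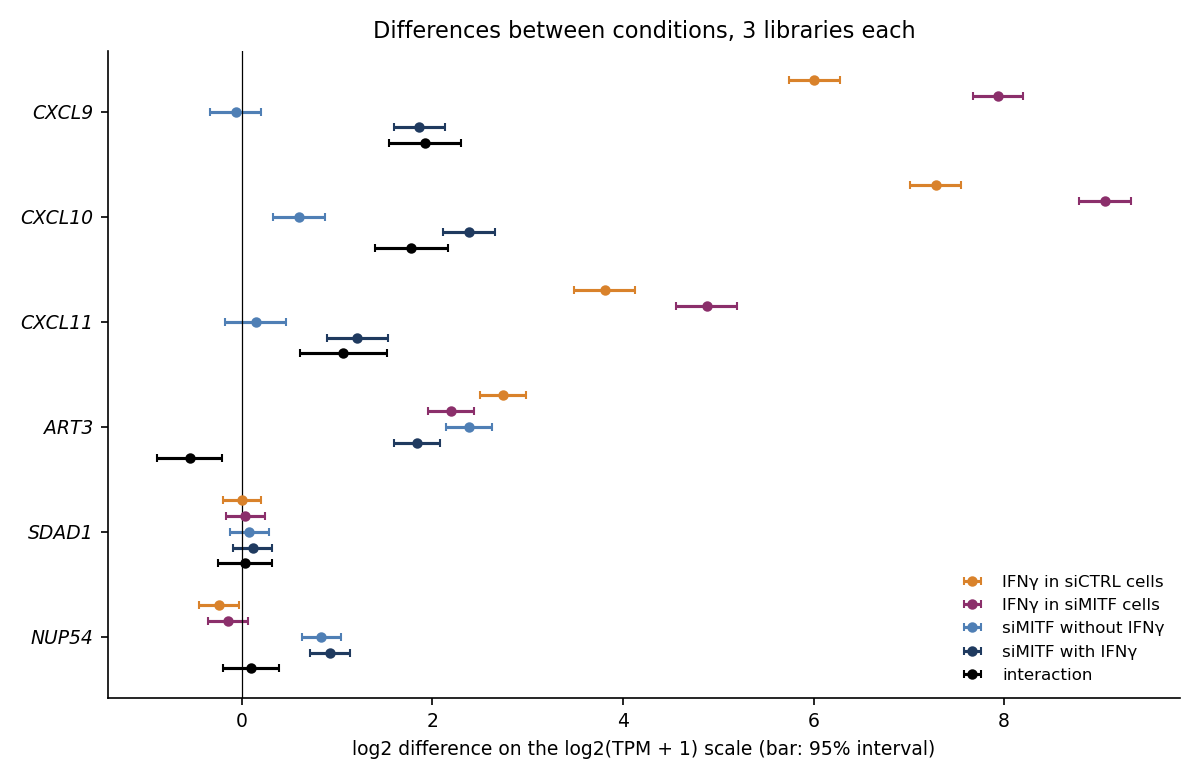
Log2 difference on the log2(TPM + 1) scale, horizontal axis, for the 6 tested genes in 4 comparisons and the interaction, with bars for 95% intervals (limma, 3 libraries per condition). ART3 is the only gene with all 4 differences above 1, and the SDAD1 intervals all include 0.

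The means of the combination can be set beside the sum of the single changes. In TPM, ART3 gained 39.3 with IFNγ alone and 29.1 with siMITF alone over its siCTRL mean, so that adding both gives 74.4 TPM, and the measured mean was 164 ± 7.45 (SD, n = 3), 2.21 times that sum. The same ratio was 5.29 for CXCL10, 3.65 for CXCL9 and 2.38 for CXCL11. It was 0.992 for NUP54 and 1.02 for SDAD1. For the chemokines the siMITF change alone was at most 0.534 TPM, so the ratio is close to their siMITF fold under IFNγ.

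On the log2 scale the interaction compares the IFNγ difference in siMITF with that in siCTRL cells. It was called for CXCL9 (1.93 ± 0.17 SE, limma adjusted p = 1.87e-04), CXCL10 (1.78 ± 0.18, adjusted p = 3.31e-04) and CXCL11 (1.07 ± 0.21, adjusted p = 0.0338), 3 of 6 tested genes against 0.391% of all tested genes. For ART3 it was -0.55 ± 0.16 and was not called (adjusted p = 0.206), so ART3 exceeded the sum in TPM but not on the log2 scale. The difference of the interaction between ART3 and the chemokines was not tested.

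The interaction of CXCL9 held with other pseudocounts, at 1.98 with 0.5 and 2.10 with 0.1, and its adjusted p ran from 2.97e-05 to 0.00255 over all alternatives (limma). For CXCL10 it was 1.38 with 0.5 and -0.03 (limma adjusted p = 0.998) with 0.1, a scale on which IFNγ raised it by 10.34 in siCTRL and 10.31 in siMITF cells. Over all alternatives its adjusted p ran from 6.41e-05 to 0.998. In ratios of mean TPM, with no pseudocount, IFNγ raised CXCL10 6721-fold in siCTRL and 1509-fold in siMITF cells, from levels near 0. CXCL11 was not called with 0.5 (0.97, adjusted p = 0.134) or 0.1 (0.39, adjusted p = 0.978), nor without a filter on low values (adjusted p = 0.0992). Leaving out 1 of the 12 libraries ended its call in 10 fits (0.94 to 1.12, adjusted p from 0.0611 to 0.0986), the exceptions being replicate 2 of siCTRL + IFNγ and replicate 3 of siMITF + IFNγ.

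**Figure D4:**
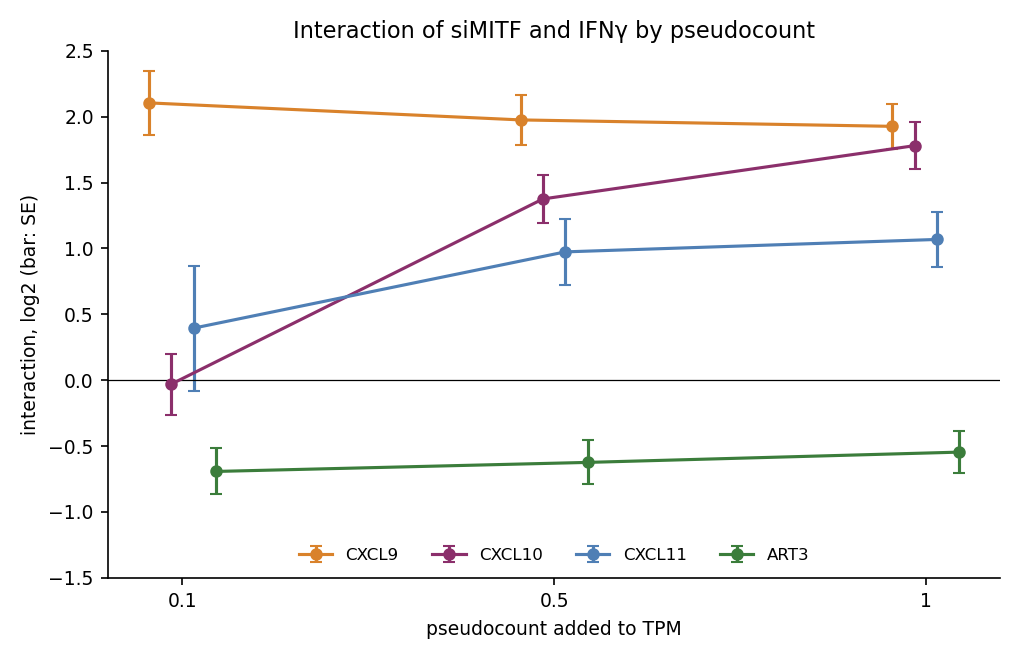
Interaction on the log2 scale, vertical axis, for CXCL9, CXCL10, CXCL11 and ART3 with pseudocounts of 0.1, 0.5 and 1 on the horizontal axis, with bars for the SE. CXCL9 stays between 1.93 and 2.10, whereas CXCL10 moves from -0.03 to 1.78.

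The make-up of the CXCR3 ligand transcripts under IFNγ was compared next. The summed TPM of CXCL9, CXCL10 and CXCL11 was 249, 281 and 230 in the siCTRL + IFNγ libraries and 1418, 1071 and 1025 in the siMITF + IFNγ libraries, which did not overlap. CXCL10 supplied 62.6% ± 3.46 (SD, n = 3) of the sum with siCTRL and 71.6% ± 2.04 with siMITF. CXCL9 supplied 31.9% ± 3.19 and 25.5% ± 1.81, and CXCL11 5.55% ± 0.548 and 2.92% ± 0.307. The depth of the libraries is unknown, so these shares carry no counting interval.

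**Figure D5:**
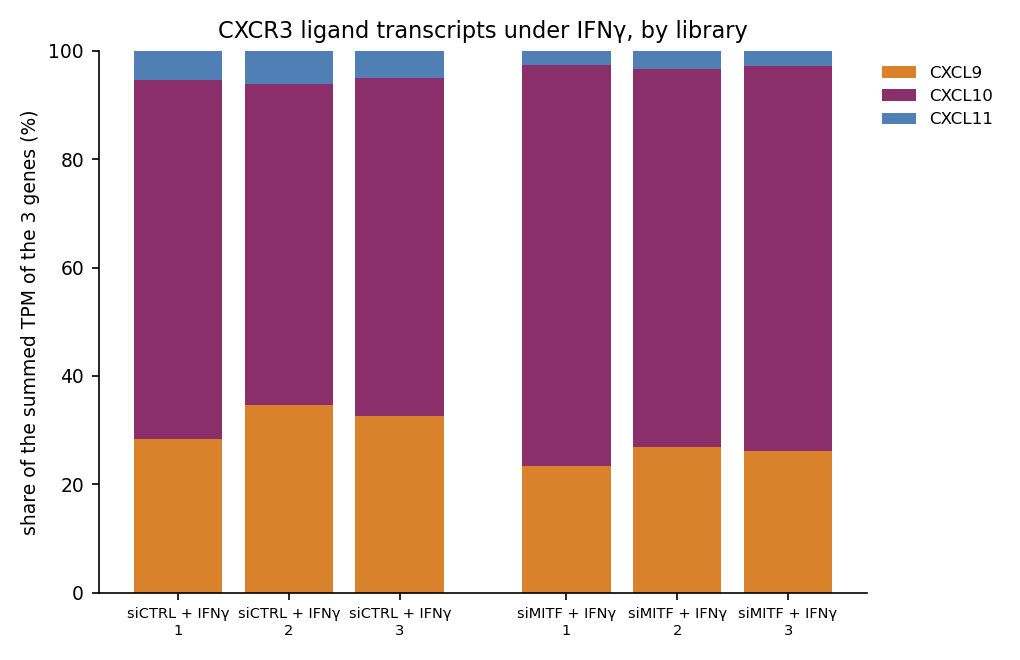
Share of CXCL9, CXCL10 and CXCL11 in their summed TPM, vertical axis in percent, in each of the 6 libraries with IFNγ. CXCL10 makes up 59.3% to 66.2% with siCTRL and 69.8% to 73.8% with siMITF.

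Ratios within a library gave the same order. The CXCL10 to CXCL9 ratio was 1.71 to 2.33 with siCTRL + IFNγ and 2.60 to 3.15 with siMITF + IFNγ, and the CXCL10 to CXCL11 ratio 9.67 to 12.3 and 21.3 to 27.2. CXCL10 relative to ART3 was 3.12 to 3.90 and 4.44 to 6.21. For 5 of the 6 pairs of these genes the libraries did not overlap, with an exact two-sided permutation p of 0.1, the smallest that 3 against 3 libraries allow, and 0.12 after adjustment over 6 pairs. The exception was CXCL9 to ART3, at 1.64 to 2.05 and 1.71 to 1.97 (exact permutation p = 0.8), with a change of 0.02 ± 0.12 (SE) on the log2 scale. The permutation treated libraries as independent and did not use the replicate numbers as pairs. The 6 ratios share genes, so they are not separate results, and the share without overlap among other gene pairs was not computed.

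The profile over the 4 conditions can also be compared between genes, as the root mean square difference of the centred condition means of log2(TPM + 1). CXCL9 and CXCL10 were the closest responding genes, at 0.670, followed by CXCL11 and ART3 at 1.25 and CXCL9 and CXCL11 at 1.34. CXCL9 and ART3 were 2.41 apart, and CXCL10 and ART3 2.93. By this measure ART3 was closer to NUP54 (1.47) and SDAD1 (1.59), which did not respond to IFNγ, than to CXCL9 or CXCL10. SDAD1 and NUP54 differed by 0.407. These distances rest on 4 condition means and are a description only. They were computed with a pseudocount of 1 alone, and their order with a smaller one was not computed. With a pseudocount of 0.1 the IFNγ difference of CXCL11 was 6.52 in siCTRL and 6.91 in siMITF cells, beside 2.92 and 2.22 for ART3.

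Outside the locus, the 5 tested genes closest to CXCL10 by this measure were GBP1, IFITM1, BST2, GBP5 and IDO1, at 0.550 to 1.05. All are known as interferon-induced genes, and IDO1 encodes an enzyme that breaks down tryptophan. Under IFNγ these 5 genes were higher with siMITF by 0.49 to 1.03 on the log2 scale, beside 2.38 for CXCL10. Their interactions ran from -0.71 to 0.62, beside 1.78 for CXCL10. GBP1 rose with IFNγ from a mean of 0.841 to 471 TPM in siCTRL and from 1.21 to 863 TPM in siMITF cells. The genes closest to CXCL11 were GBP3, PSMB9, an ID without a symbol here (ENSG00000231968), APOL3 and ENSG00000243067, at 0.122 to 0.228, and 0 of these 5 were among the closest with a pseudocount of 0.1. PSMB9 encodes a subunit of the immunoproteasome. The genes closest to ART3 were SERPINB2, ACOX2, ITGA1, SOCS1 and LYPD1, at 0.419 to 0.541. SERPINB2, a protease inhibitor, had means of 0.489 TPM with siCTRL, 3.65 with IFNγ, 4.23 with siMITF and 18.3 with both. With a pseudocount of 0.1, 4 of 5 genes were kept for CXCL10 and 4 of 5 for ART3.

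Genes of the IFNγ pathway set these values in context. Of 16 listed genes 15 were tested, and 7 rose with IFNγ in siCTRL and 7 in siMITF cells, among them STAT2, STAT3, IRF9, SOCS3 and IRF1. Of all tested genes 2.42% and 2.72% were called higher in these comparisons. The median IFNγ difference of the list was 0.72 and 0.86, beside -0.07 and -0.10 over all tested genes. IRF1, a transcription factor that acts on interferon-responsive promoters, went from a mean of 2.49 to 88.0 TPM in siCTRL and from 3.08 to 155 TPM in siMITF cells, log2 differences of 4.66 ± 0.12 and 5.25 ± 0.12 (SE). Under IFNγ it was 0.82 ± 0.12 higher with siMITF (limma adjusted p = 2.28e-04), under the limit of 1, and its interaction of 0.59 was not called (adjusted p = 0.210). SOCS1, a feedback inhibitor of JAK kinases, was higher with siMITF under IFNγ by 1.28 ± 0.14 (limma adjusted p = 1.96e-05), from a mean of 3.80 to 10.6 TPM. It was the only listed gene called higher there, where 3.12% of all tested genes were called higher. Without IFNγ SOCS1 was also higher with siMITF, by 1.16 ± 0.14 (SE, limma adjusted p = 4.10e-05). Its means without IFNγ, 0.268 and 1.84 TPM, were under the 2 TPM needed for a call. The interaction of SOCS1 was 0.12 (limma adjusted p = 0.987). The receptor subunits IFNGR1 and IFNGR2 ranged from 19.8 to 38.2 TPM over all libraries.

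Of the NF-kB subunits, 4 of 5 were tested and limma called 0 in any comparison. Of all 12773 tested genes, 61 to 779 were called in either direction, depending on the comparison, and 0.391% to 3.22% were called higher. In so few genes 0 calls say little. At an unadjusted p under 0.05, 2 were higher with IFNγ in siCTRL cells and 1 with siMITF, with and without IFNγ, where 26.3% to 43.7% of all tested genes passed that p. The receptor CXCR3 was listed at no more than 0.0121 TPM, and DPP4, a protease that trims the CXCR3 ligands, at no more than 0.259 TPM. FURIN, a convertase that can process CXCL10, was the only one of these 6 receptors and enzymes tested and was not called. The ART family genes ART1, ART4 and ART5 stayed at or below 0.164 TPM.

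Of 14 other CXC chemokines 5 were tested, and limma called 0 with IFNγ with either siRNA. Of all 12773 tested genes, 322 were called in either direction in siCTRL and 377 in siMITF cells, and 2.42% and 2.72% were called higher. In so few genes 0 calls say little. At an unadjusted p under 0.05, 2 were higher with IFNγ in siCTRL cells, and 1 was higher and 3 lower in siMITF cells, where the shares of all tested genes were 26.3% and 33.8%. With siMITF alone, CXCL1, a ligand of CXCR2, rose by 1.49 ± 0.14 (SE, limma adjusted p = 3.76e-06), from a mean of 1.14 to 4.95 TPM. CXCL14 rose by 1.96 ± 0.11 (adjusted p = 6.21e-08), from 0.108 to 3.29 TPM, and under IFNγ by 2.31 ± 0.11 (adjusted p = 1.74e-08). With IFNγ in siMITF cells it differed by 0.52 (adjusted p = 0.00643), under the limit of 1. CXCL8 was at means of 18.6 to 37.3 TPM and was not called in any comparison.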

How the data were processed

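RNA of 624Mel cells was sequenced on a NovaSeq instrument from TruSeq RNA v2 libraries, 3 in each of 4 conditions, grouped by the labels. The authors trimmed reads with Trimmomatic 0.39 and estimated transcript levels against the Ensembl GRCh38 transcriptome with kallisto, and deposited 1 TPM value for each gene and library. The Ensembl release and the tool that summed transcripts to genes are not given in the sources used here. The authors' DESeq2 tests on counts were not used. Depth per library is unknown, so no counting interval is given.

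From the TPM, log2(TPM + 1) was fitted with limma 3.58.1 in R 4.3.3 for the 12773 gene IDs that averaged 2 TPM or more in some condition, with a coefficient for each condition, an intensity trend and Benjamini-Hochberg adjustment. Comparisons share libraries, so their errors are correlated. An interaction was called with an adjusted p under 0.05 and a size over 1. The fit was tested on simulated data. NAAA was tested by exact permutation within siRNA. Libraries with the same replicate number in the labels deviated together, with correlations across genes of 0.102 to 0.625 in all 18 pairs. The median was -0.20 in the 36 pairs with different numbers. Each gene was centred on its condition mean, so positive values for the same number push those for different numbers below 0. The numbers were taken to pair the libraries, and the replicate block was an alternative fit. The methods describe replicates of the experiments as independent, without detail for these libraries.

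The other alternatives were pseudocounts of 0.1 and 0.5, other filters on low values, quantile normalization, centring of each library, moderation without a trend, only the compared conditions in the fit, and each library left out in turn. Named genes were the 7 of the locus, MITF, called genes of the neighbourhood and of the lists, and the 5 genes closest in profile to CXCL10, CXCL11 and ART3. Other genes of the lists and of the neighbourhood were added after their values were seen. The members and lists were chosen with earlier results of these data known. Some genes are not reported here. Tables and figures used Python 3.11.15, pandas 2.3.3, numpy 2.4.6, scipy 1.17.1 and matplotlib 3.10.9.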

Additional observations from a re-analysis of the deposited data

Results flagged for a closer look

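The effect of IFNγ differed between siMITF and siCTRL cells, by the interaction term of the limma fit, for CXCL9 by 1.93, for CXCL10 by 1.78 and for CXCL11 by 1.07 on the log2 scale. All 3 values are positive on the log2(TPM + 1) scale, a larger IFNγ difference after MITF knockdown. With a pseudocount of 0.1 the value was 0.39 for CXCL11 and turned to -0.03 for CXCL10. As a ratio of mean TPM, IFNγ raised CXCL10 6721-fold in siCTRL and 1509-fold in siMITF cells, and CXCL11 193-fold and 185-fold, the opposite order, while CXCL9 was raised 306-fold and 1405-fold. These ratios were not tested and rest on levels near 0. All 3 genes lie under 1 TPM in every library without IFNγ.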

How the results depend on the processing

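Over 22 alternatives, 629 of 654 values for the 6 fitted genes kept their direction and their call, which needs the adjusted p, the size and the level together. Of the rest, 14 were the interaction of CXCL11 no longer called and 11 turned sign. A pseudocount of 0.1 left 1 gene of the locus (CXCL9) called for the interaction in place of 3, and turned the interaction of CXCL10 to -0.0301. The pseudocount of 0.1 together with the replicate block, chosen after seeing the data, also left 1 gene, with the CXCL10 interaction at -0.0301. With the replicate block alone the CXCL9 interaction was 1.93 with an adjusted p of 6.80e-05, and the block changed no call of the 6 fitted genes, while NAAA was not run with it. By construction a smaller pseudocount enlarges log2 differences from levels near 0, such as those of CXCL10 without IFNγ. Leaving out each library in turn turned the sign of some values close to 0, none of them called. The IFNγ difference of SDAD1 then ran from -0.0697 to 0.104 in siCTRL and from -0.0064 to 0.0761 in siMITF cells, and its interaction from -0.0662 to 0.108. The interaction of NUP54 ran from -0.0002 to 0.156, and the IFNγ difference of NAAA from -0.0356 to 0.0915, with the other sign in 6 of 13 alternatives. The file holds TPM without counts, so neither counting error nor a limit of detection could be given for the levels near 0.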
